A study of Rattus norvegicus with 31 samples.

Results

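Cadherins and other neural adhesion molecules were followed in motor neurons of the rat tail after spinal cord injury. The members were the probe sets of the array that carry a single gene symbol naming a cadherin, a protocadherin, a Fat cadherin, a catenin, a member of the Ncam, L1, contactin, nectin, Cadm, neurexin or neuroligin families, or a claudin other than Cldn11. This gave 68 probe sets for 52 genes, of 12913 probe sets tested and 9769 genes named on the array. Of the 52 genes, 39 were measured by 1 probe set, 10 by 2 and 3 by 3. The pattern also takes in Ctnnbip1 and Ctnnbl1, which share the catenin name but are not junctional catenins: Ctnnbip1 binds beta-catenin and blocks its partnership with TCF factors, and Ctnnbl1 is a nuclear protein associated with the spliceosome. Cldnd1 likewise carries a claudin domain without being a classical claudin.

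Cadherins hold neighbouring cells together through calcium-dependent contacts between their extracellular repeats, and the classical ones are tied to actin through beta-, p120- and alpha-catenin. Neurons combine them with immunoglobulin-type molecules (Ncam, L1, contactin and nectin families) in axon guidance, in the node of Ranvier and in contacts between membranes. Neurexins on the axon terminal bind neuroligins on the receiving cell and so align the sides of a synapse, while claudins seal or make selective the tight junctions of epithelia, of vessels and of myelin.

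The expression of these genes was measured with Affymetrix rat expression arrays, whose probe sets each sum several short probes of a transcript, in adult male Wistar rats whose sacral cord had been transected completely at S2, which isolates the tail segments from the brain. The groups were spinalized rats taken after 2 days (Spi-2, n = 6), 7 days (Spi-7, n = 5), 21 days (Spi-21, n = 8) and 60 days (Spi-60, n = 8), and uninjured rats (Control, n = 4). Each array held the RNA of 1 animal, taken by laser microdissection from motor neurons of S3 and S4 that had been labelled retrogradely with Fluoro-Gold in every group, and the RNA was amplified linearly in 2 rounds. The Spi-21 and Spi-60 samples came from an earlier study and the others from the present one, so that the study and the difference between late and control arrays cannot be told apart.

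All values are RMA expression values on the log2 scale, so that a difference of 1 means a factor of 2. Groups are compared only within a probe set or within the mean of a list. Statements that a probe set was dim or bright do set levels of different probe sets side by side, and are only a rough guide. The arrays had medians of 5.95 to 6.10. The mean of the 8 of 10 listed motor neuron genes that were measured (Chat and Mnx1 were not analysed here) was 10.65 to 11.22 in Spi-21 rats and 10.95 to 11.32 in Spi-60 rats, against 10.93 to 11.34 in Control rats. The neurofilaments Nefh, Nefm and Nefl and the intermediate filament Prph had means of 12.75 to 14.14 over all arrays, while the transcription factor Isl1 had 5.70, below the median of every array. Slc5a7, the choline transporter of cholinergic neurons, was lower at day 2 (-1.18 ± 0.30, limma adjusted p = 0.0128), at day 21 (-1.11 ± 0.29, adjusted p = 0.0095) and also at day 60 (-1.06 ± 0.29, adjusted p = 0.0112), and Prph was higher on all 4 days (0.59 to 0.79). The mean of 6 fibroblast and meningeal genes was 10.30 in Spi-2 replicate 4 and 5.41 to 5.97 in the other Spi-2 rats, against 5.50 to 6.53 in Control rats. Without that array, 2 members passed at day 2, Cldn10 (-0.80 ± 0.21, limma adjusted p = 0.0195) and Cdh15 (0.53 ± 0.14, adjusted p = 0.0165). The difference between the 3 prime and the 5 prime probe sets of Gapdh, a measure of how short the amplified RNA was, was 2.99 to 3.97 in Spi-60 rats, against 1.80 to 2.50 in Control rats, with no overlap. In Spi-21 rats it was 2.76 to 3.54 in replicates 1 to 4 and 1.13 to 1.66 in replicates 5 to 8.

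A subset of the adhesion genes was lower in the late phase, and most members did not pass a test at any day. At day 21, 8 of the 68 probe sets were lower than Control and 3 were higher at an adjusted p under 0.05 in limma, against 10.7% and 5.94% of all 12913 probe sets. The 8 were Pcdh20, Fat1, Cdh11, Ctnna1, Ncam2, Nrcam, Nectin3 and Cldn10, and the 3 were Cdh15, Cldn1 and Nlgn3. At day 60, 5 were lower (Pcdh20, Nrcam, Ctnna1, Cdh11 and Ncam2) and 2 higher (Cdh15 and Ctnnbip1), where 9.89% of all probe sets were lower and 7.2% higher. The shares among the members, 11.8% and 4.41% at day 21 and 7.35% and 2.94% at day 60, lie near those of the array as a whole or below them. At day 2, 1 member was lower (Cldn10) and 0 were higher, against 4.98% and 3.9% of all probe sets, and at day 7 0 members passed in either direction in limma, against 1.67% lower and 0.914% higher. At an unadjusted p under 0.05 the numbers were 10 (day 2), 9 (day 7), 18 (day 21) and 18 (day 60), or 14.7%, 13.2%, 26.5% and 26.5% of the members, where the shares of all probe sets were 22.9%, 15.6%, 31.8% and 30.9%. Single Control arrays moved these counts: without Control replicate 2 or 3, 6 and 7 members passed at day 21, and without Control replicate 3, 4 passed at day 60. At day 7, 2 passed without Control replicate 4 and 1 without Spi-21 replicate 3 or Spi-60 replicate 5, and 6 with array weights. The weights also took the day 7 calls over all probe sets from 334 to 1530. The F-test over the 5 groups called 8 of 68 members at an FDR of 0.02 and 16.2% of all probe sets; 5 were called without Control replicate 1 or Spi-21 replicate 3 and 4 without Control replicate 2 or 3. The samples are small pools of microdissected cells, in which fewer cells of a type and less RNA per cell cannot be told apart.

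The median change of the members was -0.04 for Spi-2 and -0.02 for each of Spi-7, Spi-21 and Spi-60, and that of all probe sets was within 0.02 of 0 at each day. The 6 probe sets that passed at both late days, Pcdh20, Nrcam, Ctnna1, Cdh11, Ncam2 and Cdh15, had the same direction at both. Of the 52 genes, 14 had a probe set called in the F-test or in a contrast with Control and 38 had none. Of the 12 probe sets called in a contrast, 6 also passed the F-test at an FDR of 0.02. Cdh15, Cldn1, Cldn10, Ctnna1, Ctnnbip1 and Fat1 did not (F-test adjusted p = 0.021 to 0.0454). The plot of changes by sub-family shows lower calls in 6 of the 10 sub-families at day 21 and in 4 at day 60, with 2 in the Ncam and L1 families at both days and 2 among the other protocadherins and Fat at day 21.

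**Figure D1:**
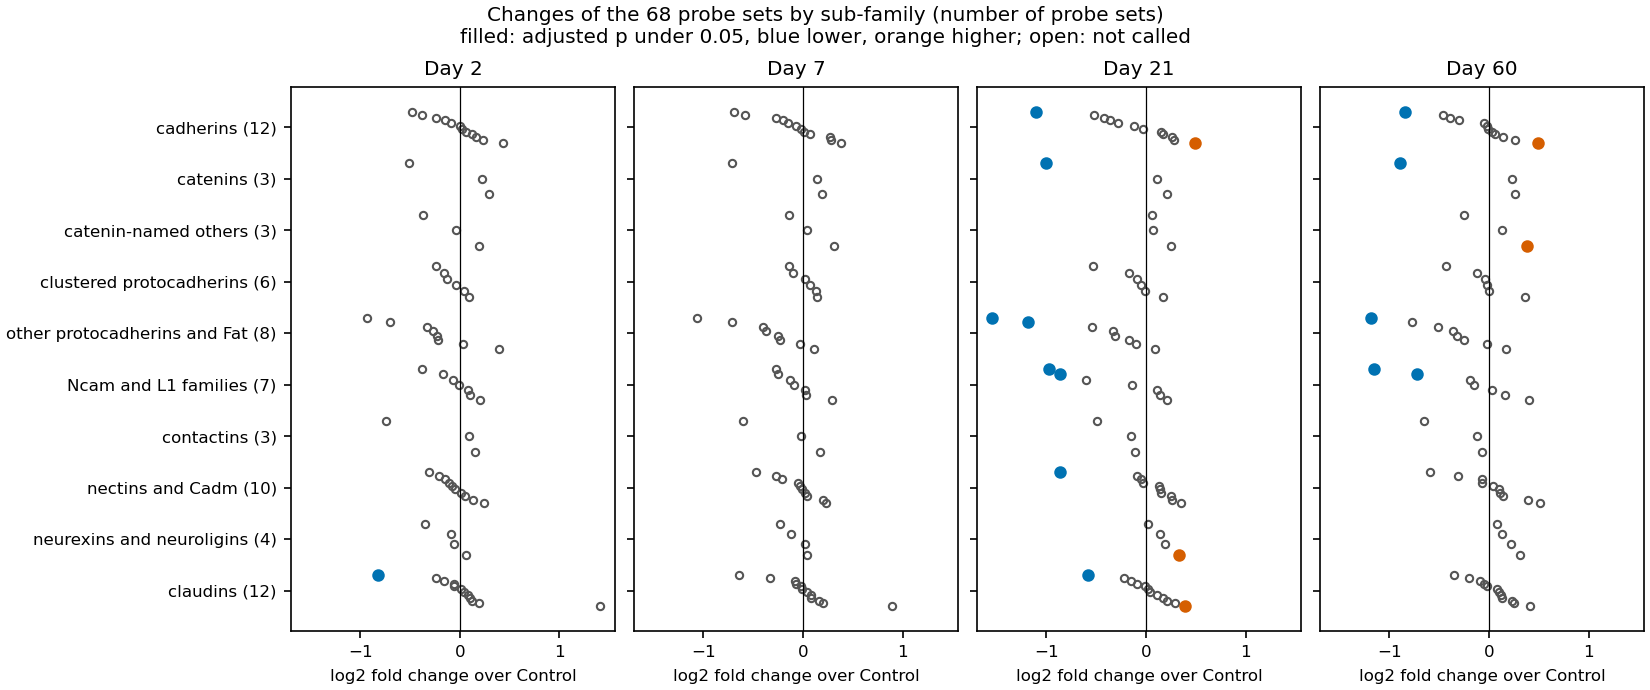
Log2 fold change over Control (x axis) of each of the 68 probe sets at days 2, 7, 21 and 60, grouped by sub-family (y axis, number of probe sets in brackets); filled points passed an adjusted p under 0.05 in limma, blue lower and orange higher. At day 21, 8 points are blue and 3 are orange, and at day 7 0 points are filled.

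**Figure D2:**
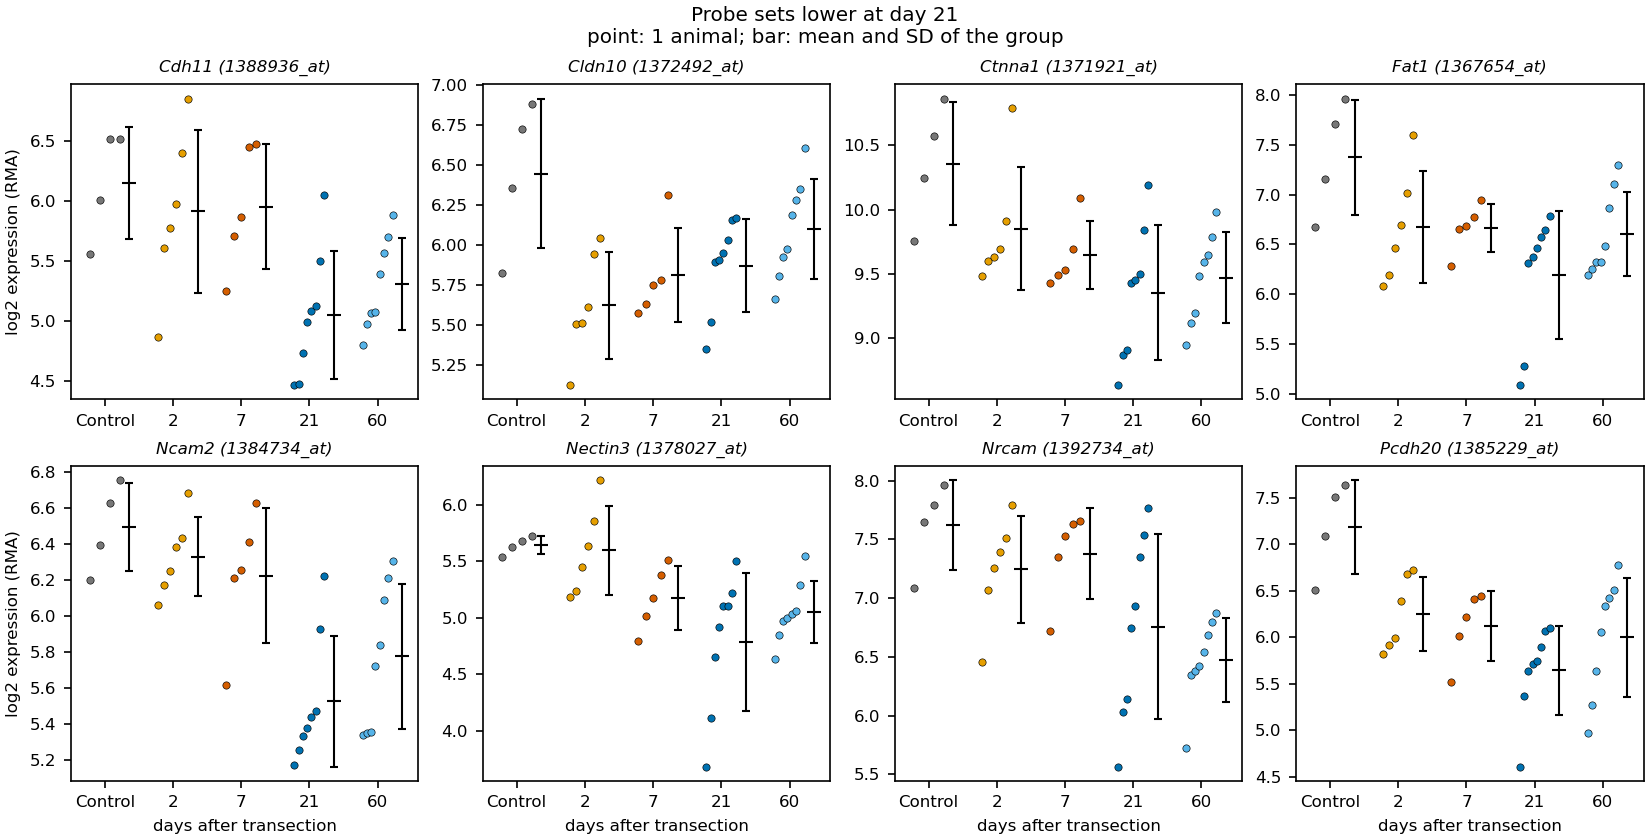
Log2 expression (y axis) in each animal of the 8 probe sets that were lower at day 21, by days after transection with Control at the left (x axis); each point is 1 animal and the bars are the mean and SD of the group. All 8 Spi-21 animals lie below all 4 Control animals for Pcdh20 and Nectin3, and at least 1 Spi-21 animal reaches into the Control range in the other 6 panels. The share of all probe sets without such overlap was not worked out.

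Promoters are shown for 6 of the members called at a late day, to set the start regions of lower and higher genes of different families side by side. The sequences run from 250 bases before to 50 bases after the start, 5′ to 3′ on the gene's strand, in RefSeq's GRCr8 assembly; such a promoter was found for 33 of the 52 genes (35 promoters). The first 4 belong to genes that were lower and the last 2 to genes that were higher: Pcdh20 (chr15:70840249-70840548, minus strand), Fat1 (chr16:54028560-54028859, minus strand), Ncam2 (chr11:33591573-33591872, plus strand), Nectin3 (chr11:67826694-67826993, plus strand), Cdh15 (chr19:67814407-67814706, plus strand) and Ctnnbip1 (chr5:165244848-165245147, plus strand). Capitals mark matches, on either strand, to the GC box of Sp1 (GGGCGG), the E-box of Zeb1 (CACCTG), the E-box of Myc (CACGTG), a Foxo site (TGTTTAC) and the core of the cAMP response element (TGACGT).
Pcdh20: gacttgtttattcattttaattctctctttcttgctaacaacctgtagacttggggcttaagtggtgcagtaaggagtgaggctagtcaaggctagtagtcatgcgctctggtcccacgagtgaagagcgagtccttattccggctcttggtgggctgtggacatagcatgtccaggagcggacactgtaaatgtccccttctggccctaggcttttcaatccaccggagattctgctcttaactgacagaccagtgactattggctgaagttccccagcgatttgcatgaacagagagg
Fat1: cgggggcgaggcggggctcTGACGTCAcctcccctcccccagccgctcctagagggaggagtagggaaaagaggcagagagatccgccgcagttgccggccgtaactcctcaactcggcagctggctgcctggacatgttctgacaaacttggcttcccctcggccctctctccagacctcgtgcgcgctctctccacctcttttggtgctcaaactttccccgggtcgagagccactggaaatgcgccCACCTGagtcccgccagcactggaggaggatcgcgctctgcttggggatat
Ncam2: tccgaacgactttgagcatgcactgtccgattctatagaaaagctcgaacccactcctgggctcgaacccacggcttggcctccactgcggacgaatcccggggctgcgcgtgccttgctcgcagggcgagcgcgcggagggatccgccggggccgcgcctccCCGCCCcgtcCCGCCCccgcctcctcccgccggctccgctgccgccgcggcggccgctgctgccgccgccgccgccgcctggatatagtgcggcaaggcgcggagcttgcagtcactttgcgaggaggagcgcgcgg
Nectin3: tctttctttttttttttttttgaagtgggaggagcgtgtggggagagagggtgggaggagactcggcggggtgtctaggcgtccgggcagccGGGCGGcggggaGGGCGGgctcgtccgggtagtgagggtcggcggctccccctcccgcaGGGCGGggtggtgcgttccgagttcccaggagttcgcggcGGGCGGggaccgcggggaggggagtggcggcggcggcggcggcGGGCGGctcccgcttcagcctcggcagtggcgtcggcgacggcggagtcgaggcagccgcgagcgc
Cdh15: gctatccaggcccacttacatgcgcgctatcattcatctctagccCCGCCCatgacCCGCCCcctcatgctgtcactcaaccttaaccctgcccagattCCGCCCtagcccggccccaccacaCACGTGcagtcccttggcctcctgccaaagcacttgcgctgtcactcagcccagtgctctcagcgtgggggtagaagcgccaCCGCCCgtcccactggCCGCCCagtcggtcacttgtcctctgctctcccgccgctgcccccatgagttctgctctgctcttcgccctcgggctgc
Ctnnbip1: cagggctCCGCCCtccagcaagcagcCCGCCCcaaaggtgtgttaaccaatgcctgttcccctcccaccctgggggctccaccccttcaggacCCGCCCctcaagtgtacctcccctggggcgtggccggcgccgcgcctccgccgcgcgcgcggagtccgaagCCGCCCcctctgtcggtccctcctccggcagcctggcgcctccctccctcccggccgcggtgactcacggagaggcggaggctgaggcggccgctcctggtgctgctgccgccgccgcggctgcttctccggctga

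The Pcdh20 window held 0 matches to the 5 motifs and had 49.3% G and C, whereas the Ncam2, Nectin3, Cdh15 and Ctnnbip1 windows held 2, 5, 5 and 4 GC boxes and had 72.7%, 73.3%, 65.0% and 74.7% G and C. Fat1 held 1 Zeb1 E-box and a pair of overlapping TGACGT matches, 1 on each strand, that together form the palindromic cAMP response element, and Cdh15 held 1 Myc E-box. The GC box was in 31.4% of the 35 member promoters and in 33.1% of all 33469 promoters of that length, and the Zeb1 E-box in 14.3% and 18.8%. The Myc E-box was in 2.86% and 6.42%, the Foxo site in 2.86% and 3.78%, and TGACGT in 8.57% and 7.94%. GC boxes were in the windows of 2 of the 4 lower genes shown and of both higher ones, and of the other called genes with a promoter the lower Cldn10 and the higher Nlgn3 had 0 and the higher Cldn1 had 2. A match is only a match of letters.

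Among the cadherins proper (9 genes, 12 probe sets), Cdh11 was lower and Cdh15 was higher late. Cdh11 is a type II cadherin best known from mesenchymal cells, and its probe set 1388936_at had a lowest, median and highest value of 4.47, 5.04 and 6.06 in Spi-21 rats and of 4.81, 5.24 and 5.89 in Spi-60 rats, against 6.01, 6.52, 6.52 and 5.56 in the Control rats. In words, 7 of 8 Spi-21 rats were below every Control rat. The change was -1.10 ± 0.30 at day 21 (SE of the fit, limma adjusted p = 0.0126) and -0.84 ± 0.30 at day 60 (adjusted p = 0.0479). It was -0.24 ± 0.31 at day 2 and -0.20 ± 0.33 at day 7, neither of which passed. In Spi-2 rats the highest value, 6.86, was that of replicate 4, the array with the fibroblast markers, and without it the day 2 change was -0.43 ± 0.31 (adjusted p = 0.455). The call at day 21 was lost without Control replicate 2 (adjusted p = 0.0589), without Control replicate 3 (adjusted p = 0.0559) and without Spi-21 replicates 1 to 3 (adjusted p = 0.103). The call at day 60 held in 19 of 38 alternative settings, and 16 single arrays ended it, with the highest p without Control replicate 2 (-0.72, adjusted p = 0.163); the Gapdh covariate gave -0.71 (adjusted p = 0.349).

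Cdh15, the M-cadherin of muscle, had a lowest, median and highest value of 6.07, 6.52 and 6.72 in Spi-21 rats and of 6.26, 6.41 and 6.65 in Spi-60 rats, against 5.99, 5.89, 6.01 and 5.90 in Control rats. The 5 Spi-7 rats had 6.39, 6.05, 6.38, 6.29 and 6.52. No animal of these 3 groups overlapped with Control, and 5 of 6 Spi-2 rats were above every Control rat. The changes were 0.44 ± 0.14 at day 2 (adjusted p = 0.0516), 0.38 ± 0.15 at day 7 (adjusted p = 0.191), 0.49 ± 0.14 at day 21 (adjusted p = 0.0143) and 0.49 ± 0.14 at day 60 (adjusted p = 0.0129), all by limma, so that only the late days passed. Without Spi-21 replicates 1 to 3 the day 21 change was 0.44 (adjusted p = 0.0718), and with the Gapdh covariate the day 60 change was 0.52 (adjusted p = 0.118). Without Spi-2 replicate 4 the day 2 change passed as well (0.53 ± 0.14, adjusted p = 0.0165). Cdh3, the placental cadherin, passed the F-test over the 5 groups (adjusted p = 0.0151) and no contrast: its mean was 6.14 ± 0.16 in Spi-21 rats (SD, n = 8) and 6.14 ± 0.21 in Spi-60 rats (SD, n = 8), against 5.88 ± 0.09 in Control rats (SD, n = 4). Its day 21 change of 0.26 ± 0.10 passed without Spi-21 replicate 8 (adjusted p = 0.0407). Cdh2, the N-cadherin that neurons use most widely, did not pass; its probe sets changed by -0.36 ± 0.21 and -0.42 ± 0.24 at day 21 and by -0.39 ± 0.21 and -0.30 ± 0.24 at day 60. The other cadherins, Cdh1, Cdh6, Cdh13, Cdh16 and Cdh17, did not pass at any day.

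Of the 3 catenins of the junction, 1 passed. Ctnna1, alpha-E-catenin, which couples the cadherin and beta-catenin complex to actin, had a lowest, median and highest value of 8.64, 9.44 and 10.19 in Spi-21 rats and of 8.95, 9.54 and 9.98 in Spi-60 rats, against 10.86, 10.24, 10.57 and 9.75 in Control rats. Of the late animals, 6 of 8 at each day lay below every Control rat, and the others exceeded Control replicate 4 alone. The change was -1.01 ± 0.25 at day 21 (limma adjusted p = 0.00711) and -0.89 ± 0.25 at day 60 (adjusted p = 0.0137). The first was lost without Spi-21 replicates 1 to 3 (-0.68, adjusted p = 0.0943), the second without Control replicate 1 (-0.72, adjusted p = 0.0768) or Control replicate 3 (-0.82, adjusted p = 0.0547) and with the Gapdh difference as a covariate (-0.51, adjusted p = 0.408). At days 2 and 7 it was -0.51 ± 0.26 and -0.71 ± 0.27, which did not pass; without Spi-2 replicate 4, its highest Spi-2 value, the day 2 change was -0.69 ± 0.25 (adjusted p = 0.0854). Beta-catenin itself (Ctnnb1) changed by 0.11 at day 21 and 0.27 at day 60, and p120-catenin (Ctnnd1) by 0.21 and 0.23, and neither passed. The Ctnnb1 probe set was dim, with a mean of 5.26 over all arrays, against 9.66 for Ctnna1. Ctnnbip1, the inhibitor of beta-catenin signalling, rose at day 60 on probe set 1373279_at: its lowest, median and highest value was 10.11, 10.23 and 10.46 in Spi-60 rats, against 9.67, 9.85, 9.96 and 10.05 in Control rats. The groups did not overlap, and the change was 0.38 ± 0.09 (limma adjusted p = 0.00566), or 0.43 with the Gapdh covariate (adjusted p = 0.0559). Ctnnbl1 did not pass.

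The largest change of the whole list was in a protocadherin. Pcdh20, a protocadherin encoded outside the gene clusters, had a lowest, median and highest value of 4.61, 5.73 and 6.10 in Spi-21 rats, against 7.64, 7.09, 7.51 and 6.52 in Control rats. All Spi-21 rats lay below all Control rats, and so did the 5 Spi-7 rats with 6.01, 6.22, 6.41, 6.44 and 5.52. In Spi-60 rats the values ran from 4.98 through a median of 6.20 to 6.78, and 7 of the 8 were below the Control range. The change was -1.54 ± 0.29 at day 21 (limma adjusted p = 0.000815) and -1.19 ± 0.29 at day 60 (adjusted p = 0.00525), where the Gapdh covariate gave -1.24 (adjusted p = 0.0767). At day 2 it was -0.93 ± 0.30 (adjusted p = 0.0504) and at day 7 -1.06 ± 0.32 (adjusted p = 0.0634), just outside the threshold. Within the present study's 15 arrays alone, Pcdh20 was the single member that differed among days 0, 2 and 7 (F-test of limma, adjusted p = 0.0313), where 5.75% of all probe sets did and 11 members had an unadjusted p under 0.05. That call was lost without Control replicate 1, 2 or 3 and without Spi-2 replicate 5, while 3 members passed without Spi-2 replicate 2 or 3.

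Fat1, a giant cadherin that acts in cell polarity and at actin-rich contacts, had a lowest, median and highest value of 5.09, 6.42 and 6.79 in Spi-21 rats, against 7.96, 7.16, 7.71 and 6.67 in Control rats. Of the Spi-21 rats, 7 of 8 were below every Control rat, and the change was -1.18 ± 0.30 (limma adjusted p = 0.00731). In Spi-60 rats it ran from 6.19 through 6.40 to 7.29, and the change of -0.77 ± 0.30 did not pass (adjusted p = 0.0688). The early changes were -0.70 ± 0.31 at day 2 (-0.88 ± 0.30 without Spi-2 replicate 4, adjusted p = 0.0715) and -0.71 ± 0.32 at day 7, without a call. Its relatives Fat3 and Fat4 did not pass, with -0.17 and -0.10 at day 21, nor did Pcdh8, Pcdh18 and Pcdh19, of which Pcdh18 had -0.54 at day 21 and -0.51 at day 60. The clustered protocadherins (5 genes, 6 probe sets), the stochastic identity code of neurons, had 0 calls at any day in limma, with changes of -0.53 to 0.17 at day 21. The probe sets of Pcdhb12, Pcdhb21 and Pcdhb22 were dim, with means of 4.55 to 5.28 over all arrays. For these the absence of a call does not show the absence of a change. The day 21 calls of Pcdh20 and Fat1 held in 39 of 39 alternative settings, and so did that of Ncam2. Fat1 did not pass the F-test over the 5 groups (adjusted p = 0.0392).

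Of the Ncam and L1 families (5 genes, 7 probe sets), Ncam2 and Nrcam were lower late. Ncam2, an adhesion molecule of axons best studied in the olfactory system, had a lowest, median and highest value of 5.17, 5.41 and 6.22 in Spi-21 rats, against 6.20, 6.63, 6.75 and 6.39 in Control rats. Only replicate 4 of the Spi-21 rats, at 6.22, reached the Control range. The Spi-60 rats ran from 5.34 through 5.78 to 6.30, and 6 of 8 were below every Control rat. The change was -0.97 ± 0.20 at day 21 (limma adjusted p = 0.00178) and -0.72 ± 0.20 at day 60 (adjusted p = 0.0125), while it was -0.16 ± 0.21 at day 2 and -0.27 ± 0.22 at day 7, without a call. The day 60 change was -0.63 without Control replicate 3 (adjusted p = 0.0597) and -0.66 with the Gapdh covariate (adjusted p = 0.17). Ncam2 also had the smallest adjusted p of the list in the F-test over the 5 groups, 0.00116. Ncam1, its more widely expressed relative, changed by 0.14 at day 21 and 0.03 at day 60 and did not pass.

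Nrcam, an L1-family molecule of axons and nodes of Ranvier, was measured by 3 probe sets. On 1392734_at the lowest, median and highest value was 5.73, 6.48 and 6.87 in Spi-60 rats, against 7.08, 7.96, 7.80 and 7.65 in Control rats, and the groups did not overlap. The change was -1.15 ± 0.30 at day 60 (limma adjusted p = 0.0088) and -0.86 ± 0.30 at day 21 (adjusted p = 0.0464). The Spi-21 rats were spread widely, with 6.03, 5.57, 6.14 and 6.93 in replicates 1 to 4 and 7.53, 7.35, 6.74 and 7.76 in replicates 5 to 8. Replicates 1 to 4, which had the larger Gapdh differences, were the lower ones except that replicate 7 lay below replicate 4. The part of RNA length in this spread was not tested. The day 21 call held in 18 of 39 alternative settings, and 18 single arrays ended it, with the highest p without Control replicate 2 (-0.75, adjusted p = 0.151); without Spi-21 replicates 1 to 3 the change was -0.36 (adjusted p = 0.416). With the Gapdh difference as a covariate the day 21 change was -0.71 (adjusted p = 0.0485) and the day 60 change -0.30 (adjusted p = 0.667). L1cam and Nfasc, the family's other axonal members, did not pass, with 0.21 and 0.11 at day 21 and 0.40 and 0.16 at day 60. The Nfasc probe set was dim, with a mean of 5.32 over all arrays. The contactins, which pair with L1-type molecules on axons, had no call; Cntn6 had 5.99 to 6.86 in Spi-60 rats, against 7.03, 7.30, 6.86 and 7.48 in Control rats, the highest Spi-60 rat lying just below the lowest Control rat, with a change of -0.65 ± 0.26 (limma adjusted p = 0.077).

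The nectins and Cadm molecules (6 genes, 10 probe sets) had a single call. Nectin3, which binds other nectins across puncta and synapses, had a lowest, median and highest value of 3.68, 5.01 and 5.50 in Spi-21 rats, against 5.72, 5.68, 5.63 and 5.54 in Control rats. The groups did not overlap, and the change was -0.86 ± 0.23 at day 21 (limma adjusted p = 0.013), -0.05 ± 0.25 at day 2, -0.47 ± 0.26 at day 7 and -0.60 ± 0.23 at day 60 (adjusted p = 0.0758). Fitted with Control and Spi-21 arrays alone, the day 21 change had an adjusted p of 0.0532, and the probe set was among the 21 dimmest members. Cadm3, a synaptic adhesion molecule, had 0.25 and 0.35 at day 21 and 0.39 and 0.51 at day 60 on its probe sets, none of which passed (smallest adjusted p = 0.0523).

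Of the synaptic neurexins and neuroligins (2 genes, 4 probe sets), 1 probe set passed a contrast. Nlgn3, a postsynaptic neuroligin, had on 1387409_x_at a lowest, median and highest value of 5.73, 6.05 and 6.54 in Spi-21 rats, against 5.74, 5.82, 5.87 and 5.52 in Control rats, a change of 0.33 ± 0.12 (limma adjusted p = 0.0485) with 6 of 8 rats above the Control range. That call held in 11 of 39 alternative settings, and 24 single arrays ended it, with the highest p without Control replicate 4 (0.25, adjusted p = 0.179). Nrxn2, a presynaptic neurexin, passed the F-test over the 5 groups on 1368875_a_at (adjusted p = 0.00324) and no contrast with Control. Its lowest, median and highest value was 7.08, 7.29 and 7.66 in Spi-2 rats and 7.69, 8.03 and 8.35 in Spi-60 rats, against 7.62, 7.65, 7.62 and 7.88 in Control rats. The mean lay below that of Control early (-0.34 ± 0.16 at day 2, -0.23 ± 0.17 at day 7) and above it late (0.19 ± 0.16 at day 21, 0.31 ± 0.16 at day 60). The late and early arrays are of different studies, and the study and this difference cannot be told apart.

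The claudins (10 genes, 12 probe sets) held the single call at day 2 against Control. Cldn10, known from the paracellular ion channels of the kidney, had a lowest, median and highest value of 5.12, 5.56 and 6.04 in Spi-2 rats, against 6.88, 6.35, 6.73 and 5.83 in Control rats. Of the Spi-2 rats, 4 of 6 lay below every Control rat, and the change was -0.83 ± 0.20 (limma adjusted p = 0.00975). It was -0.64 ± 0.21 at day 7 (adjusted p = 0.106), -0.58 ± 0.19 at day 21 (adjusted p = 0.0385) and -0.35 ± 0.19 at day 60 (adjusted p = 0.224). The day 2 call was lost without Control replicate 1 (-0.68, adjusted p = 0.0587) or Control replicate 3 (-0.73, adjusted p = 0.0506); without Spi-2 replicate 4, 2 members passed at day 2 in place of 1, and without Spi-2 replicate 2, 4 did. The day 21 call was lost without Control replicate 1, 2 or 3 or Spi-21 replicate 3 or 8 (adjusted p = 0.063 to 0.171), and also with further quantile normalization (0.0533), the groups compared alone (0.0716), the replicate block (0.0886) and without Spi-21 replicates 1 to 3 (0.0937). Cldn4, an epithelial claudin, had the highest value among the changes but did not pass: the lowest, median and highest value was 7.92, 8.98 and 10.28 in Spi-2 rats, against 7.75, 7.86, 7.47 and 7.77 in Control rats. These groups did not overlap, and the change was 1.41 ± 0.50 (limma adjusted p = 0.0753). Its SD was 0.913 in Spi-2 rats (n = 6), 0.927 in Spi-7 rats (n = 5) and 1.08 in Spi-21 rats (n = 8), against 0.169 in Control rats (n = 4), and with the Gapdh difference as a covariate the change was 0.90 (adjusted p = 0.317). It passed in 4 of the 38 alternative settings: array weights (adjusted p = 0.0321), only Spi-2 and Control fitted (adjusted p = 0.0453), without Spi-2 replicate 3 (1.65, adjusted p = 0.0439) and without Spi-21 replicate 5 (adjusted p = 0.0441). Cldn1, a claudin of barriers in skin and vessels, rose at day 21 on 1387470_at, with 4.79, 5.05 and 5.57 as lowest, median and highest value in Spi-21 rats, against 4.63, 4.46, 4.93 and 4.84 in Control rats, a change of 0.39 ± 0.12 (limma adjusted p = 0.0273). That call was lost without Control replicate 1 or 2 or Spi-21 replicate 1 (adjusted p = 0.0529 to 0.137), without Spi-21 replicates 1 to 3 (0.0767) and with the groups compared alone (0.103). The probe set was also dim, with a mean of 4.92 over all arrays, and was among the members that the dim filter left out.

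**Figure D3:**
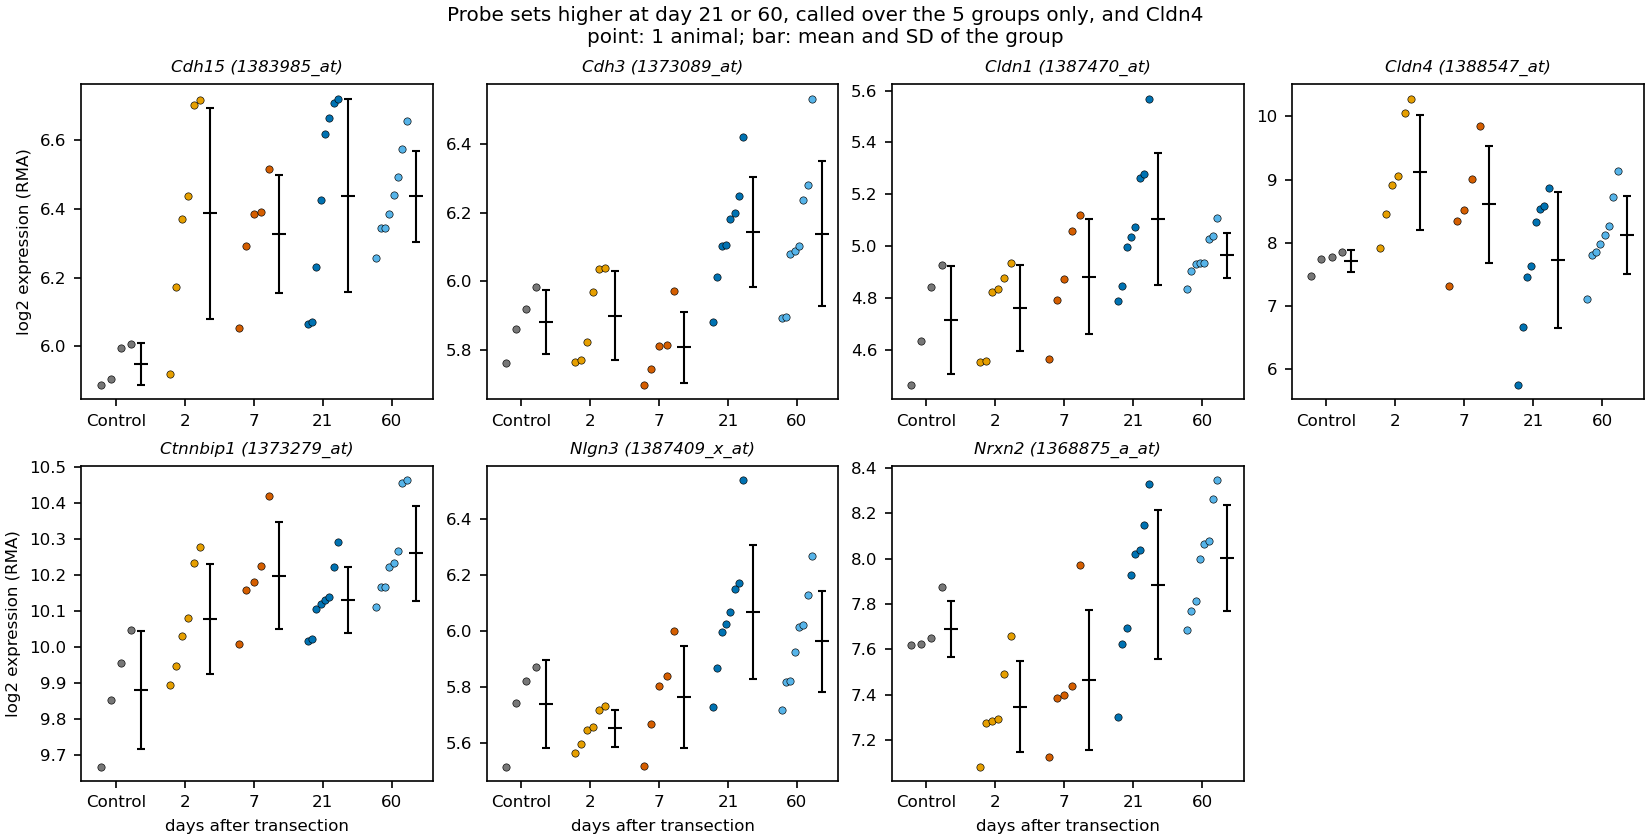
Log2 expression (y axis) in each animal of the members higher at a late day (Cdh15, Cldn1, Nlgn3, Ctnnbip1), of the members that passed only the F-test over the 5 groups (Cdh3, Nrxn2) and of Cldn4, by days after transection with Control at the left (x axis); each point is 1 animal and the bars are the mean and SD. The Cdh15 animals of Spi-7, Spi-21 and Spi-60 all lie above Control, and Cldn4 runs from 7.92 to 10.28 in Spi-2 rats.

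Of the 13 genes with several probe sets, 7 had a probe set called in the F-test or a contrast, and each of the 7 had exactly 1. For Pcdh20, 1391208_at changed by -0.31 ± 0.23 at day 21 where 1385229_at changed by -1.54 ± 0.29. For Cdh11, 1391146_at changed by -0.03 ± 0.18 where 1388936_at changed by -1.10 ± 0.30. For Nrcam at day 21, 1377001_at changed by -0.60 ± 0.25 (adjusted p = 0.0969), with 7 of 8 Spi-21 rats below every Control rat, and 1371036_at by -0.14 ± 0.20, where 1392734_at changed by -0.86 ± 0.30. At day 60 the other probe sets changed by -0.15 ± 0.20 and -0.19 ± 0.25 where 1392734_at changed by -1.15 ± 0.30. The second set of Ctnnbip1 changed by 0.13 ± 0.19 at day 60, the other sets of Cldn1 by -0.15 ± 0.17 and 0.04 ± 0.10 at day 21, and that of Nlgn3 by 0.14 ± 0.12 at day 21. The second set of Nrxn2, 1368876_a_at, changed by 0.02 at day 21 and 0.08 at day 60 (F-test adjusted p = 0.54). Where in the transcripts these probe sets lie was not analysed here, and the calls above hold for the probe set named, not for every transcript of the gene.

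**Figure D4:**
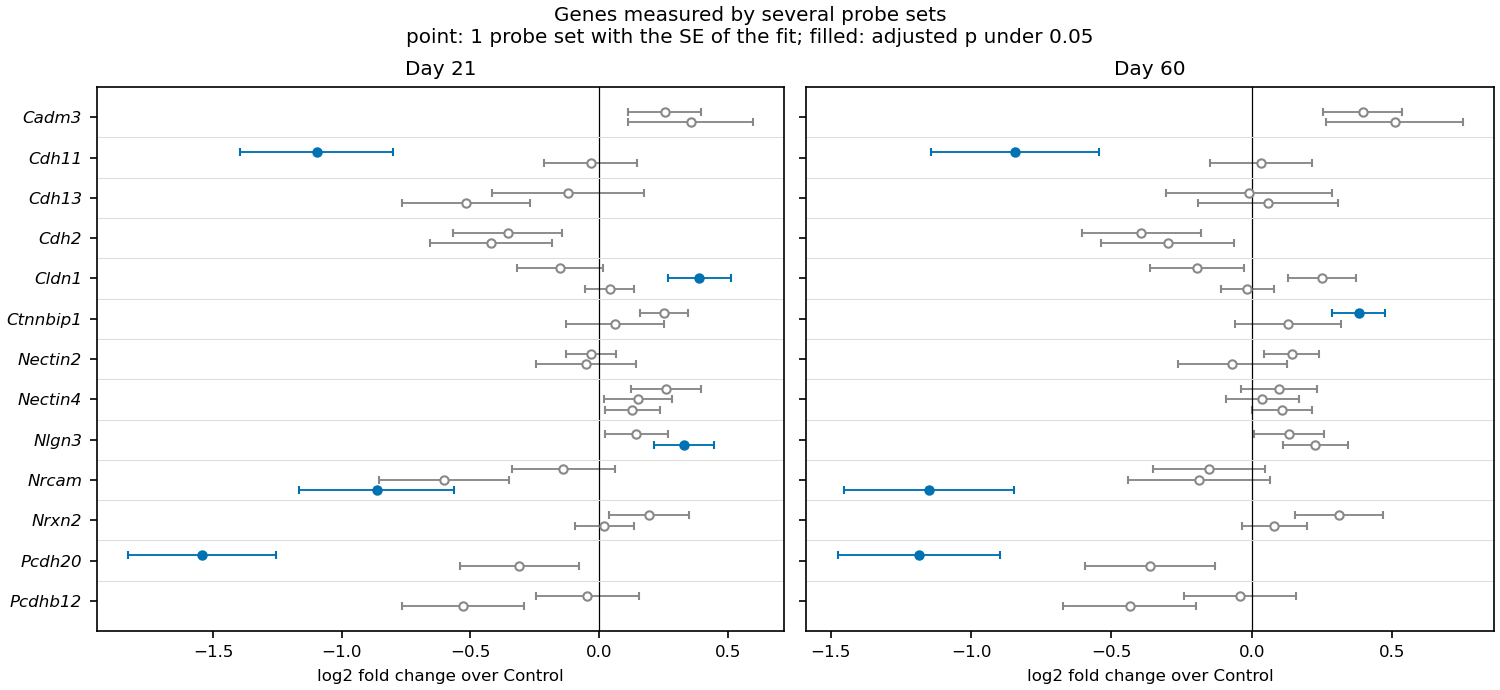
Log2 fold change over Control (x axis) at days 21 and 60 of each probe set of the 13 genes with several probe sets (y axis); bars are the SE of the fit and filled points passed an adjusted p under 0.05 in limma. Pcdh20, Cdh11 and Nrcam each have 1 filled point on the lower side at each day; the open Nrcam points lie at -0.60 and -0.14 at day 21.

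The later and the earlier day of each study were also compared with each other. Between days 60 and 21, 0 of 68 members passed in limma, where 0.0697% of all probe sets did. At an unadjusted p under 0.05 there were 7 members, or 10.3%, against 12.1% of all probe sets. Without Spi-21 replicates 1 to 3, 1 member passed, and the calls over all probe sets went from 9 to 246. With all arrays the changes ran from -0.46 (Cadm1) to 0.57 ± 0.20 (Cdh13 on 1375719_s_at, limma adjusted p = 0.233). Between days 7 and 2, 0 of 68 members passed in limma, as did 0% of all probe sets. At an unadjusted p under 0.05 there was 1 member, or 1.47%, against 3.56% of all probe sets. In every alternative setting 0 members passed. Pcdh20 differed by 0.36 ± 0.24 between days 60 and 21 and by -0.13 ± 0.29 between days 7 and 2.

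Among partners of these molecules, single genes were called in both directions. For comparison, limma called 10.7% of the whole array lower and 5.94% higher at day 21. These array-wide shares were 4.98% and 3.9% at day 2, 1.67% and 0.914% at day 7, and 9.89% and 7.2% at day 60. Whether any partner list departed from these shares was not tested. Of 20 measured cadherin partners and kin, 1 was lower and 2 were higher at day 21, and 1 was lower and 4 were higher at day 60. Clstn1, a cadherin-related calsyntenin of synapses, rose at day 60 (0.57 ± 0.13, limma adjusted p = 0.00323), and Actn1, an actin cross-linker at junctions, rose at day 2 (0.89 ± 0.21, adjusted p = 0.00624), at day 7 (0.77 ± 0.22, adjusted p = 0.0462) and at day 60 (0.68 ± 0.20, adjusted p = 0.0162). Of 20 measured partners of neurexins and neuroligins, 1 was lower at day 21, Dlg2, a scaffold of the postsynaptic density (-0.64 ± 0.18, limma adjusted p = 0.0173), and 1 was higher at day 60, Cbln1, a secreted linker of neurexins (0.68 ± 0.21, adjusted p = 0.0242). Of 13 measured partners of the immunoglobulin-type molecules, 1 was lower and 1 higher at each late day; Ank3, the ankyrin that anchors L1-type molecules at the initial segment and nodes, fell at day 60 (-0.83 ± 0.20, limma adjusted p = 0.00421), and Epb41l3, a membrane skeleton protein of axons, fell at day 2 (-0.72 ± 0.17, adjusted p = 0.00642). Sptbn4, the spectrin of the initial segment and nodes, passed the F-test alone (adjusted p = 0.00502). Of 7 measured tight junction partners, 2 were lower (Cdc42 and Jam3) and 0 higher at day 21 in limma, and 1 was lower and 1 higher at day 60 (Esam, 0.42 ± 0.14, adjusted p = 0.0304); the GTPase Cdc42 fell at day 2 (-0.81 ± 0.18, adjusted p = 0.00411), at day 21 (-0.58 ± 0.17, adjusted p = 0.0193) and at day 60 (-0.49 ± 0.17, adjusted p = 0.0442), while Ocln, the occludin of tight junctions, did not pass (F-test adjusted p = 0.0553).

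Some markers of other cells also differed from Control at the days when members were lower. The shares of all probe sets called at each day are those given above beside the partner lists. Of 4 inhibitory interneuron genes measured, Gad1 (-2.53 ± 0.59, limma adjusted p = 0.00481) and Slc32a1 (-1.87 ± 0.39, adjusted p = 0.00226) were lower at day 21, and the mean of the list was 5.27 to 6.14 in Spi-21 rats, against 6.06 to 7.52 in Control rats. At day 60 both were lower too (Gad1 -2.05 ± 0.59, adjusted p = 0.0162; Slc32a1 -1.54 ± 0.39, adjusted p = 0.0074), with a list mean of 5.65 to 6.36 in Spi-60 rats, and 1 oligodendrocyte gene was lower. Of 9 oligodendrocyte genes measured, 4 were lower and 0 higher at day 21 in limma, with a list mean of 7.22 to 7.91 in Spi-21 rats, against 7.64 to 8.34 in Control rats. At day 2, when Cldn10 was lower, Mbp was the 1 oligodendrocyte gene of 9 that was lower (-2.14 ± 0.31, limma adjusted p = 6.12e-05). The median change of that list was -0.31. Of 9 microglial genes, 4 were higher at day 2. The mean of the microglial list was 6.31 to 7.15 in Spi-2 rats, against 5.52 to 5.78 in Control rats. At day 21, 2 of the 9 microglial genes were higher in limma, with a list mean of 5.50 to 7.12 in Spi-21 rats. At day 60, 3 of the 9 were higher, Csf1r the most (1.48 ± 0.38, limma adjusted p = 0.00799). Of 7 astrocyte genes measured, Gfap was higher at day 2 (2.45 ± 0.42), day 21 (1.34 ± 0.40) and day 60 (1.83 ± 0.40), Slc1a3 was lower at day 21 (-0.94 ± 0.31), and Aldoc was lower at days 2 and 7 (-0.91 ± 0.18 and -0.82 ± 0.19). Control replicate 4 had the lowest mean of the Control rats for the interneuron list (6.06) and the oligodendrocyte list (7.64), and it was also the lowest Control rat for 6 of the 8 members that were lower at day 21. How often it was the lowest over all probe sets was not worked out. It was also the lowest for the astrocyte (8.38), microglial (5.52), endothelial (5.64) and fibroblast (5.50) lists, but not for the Schwann cell list (8.40). Its motor neuron mean (11.34) was the highest of the Control rats. The part of these cell types in the changes was not tested.

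**Figure D5:**
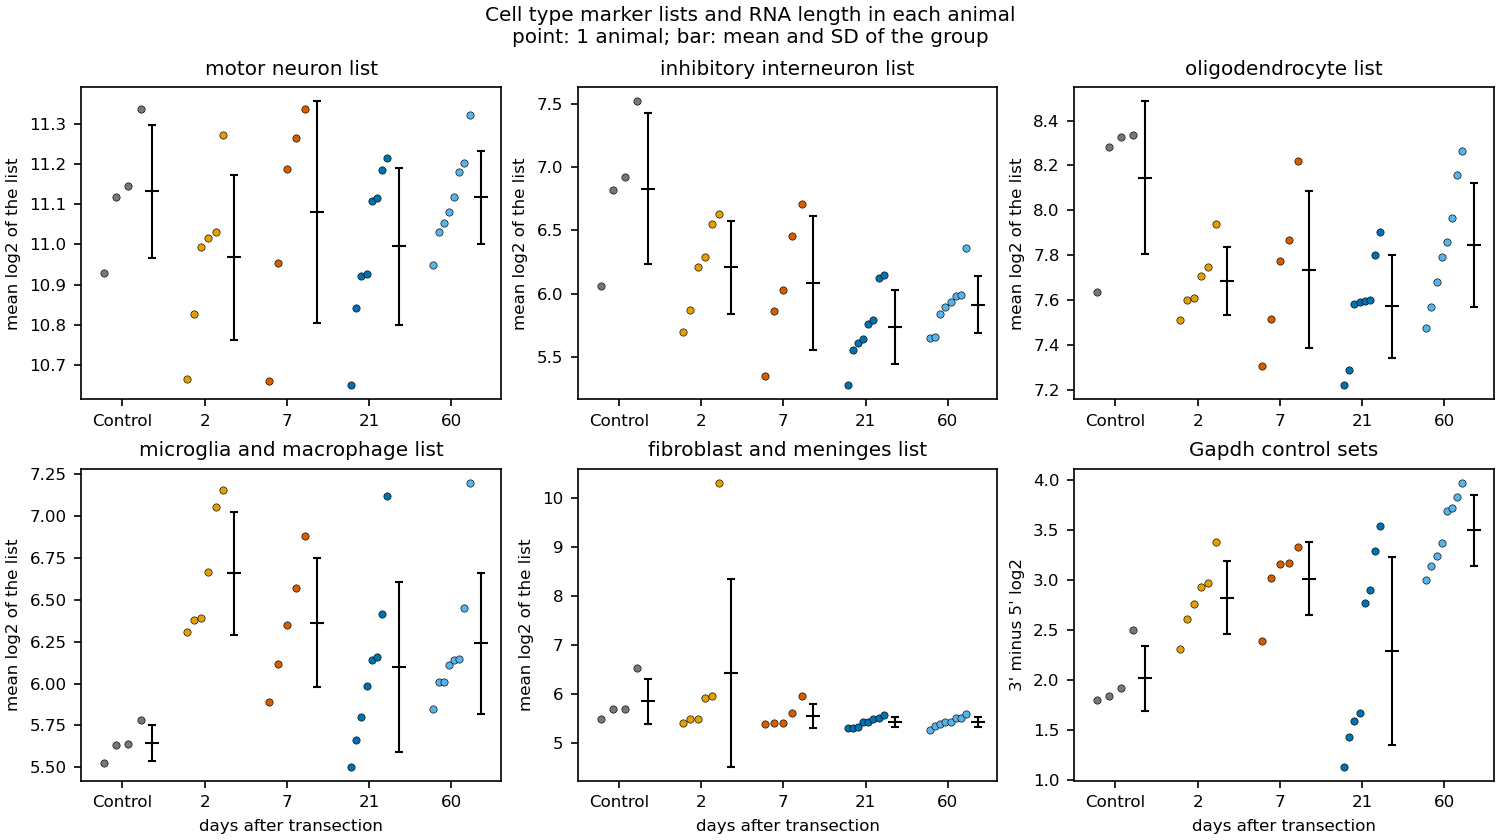
Mean log2 value of 5 cell type marker lists and the Gapdh 3 prime minus 5 prime difference (y axes) in each animal, by days after transection with Control at the left (x axis); each point is 1 animal and the bars are the mean and SD. The interneuron list spans 6.06 to 7.52 in Control rats, and a single Spi-2 rat stands at 10.30 in the fibroblast list.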

How the data were processed

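The deposited values were log2 expression summaries per probe set. Per the paper's methods and the submitters' processing notes, which name RMA, the authors kept the probe sets found in the Ensembl annotation of the chip, compensated the background, normalized the arrays, computed RMA summaries and compensated these once more; the raw arrays were not used here. The 6 Affymetrix control sets among the 12919 probe sets were left out of the tests. Genes were named from the platform annotation, in which 11880 probe sets carry 1 symbol, 320 several and 713 none; 3 protocadherin sets with several symbols were left out.

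Group means were estimated for 12913 probe sets over the 31 arrays (limma 3.58.1, R 4.3.3; tables and figures in Python 3.11.15), and p-values were adjusted by Benjamini-Hochberg across all probe sets. For the F-test on the 5 groups an FDR of 0.02 was required, the study's threshold, and for two-sided contrasts an adjusted p under 0.05. The 15 arrays of days 0, 2 and 7 were fitted alone for the comparison within the present study. The ± is the SE of the fit after a change and the SD after a mean. Where groups are said not to overlap, the share of all probe sets without overlap was not worked out. Partner and marker lists used the probe set with the highest mean per gene. Promoters came from RefSeq (GRCr8). The fit was tested on simulated data.

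The members and lists were chosen with earlier results of these data known. Members called in the F-test or in a contrast with Control are named with their values, with all probe sets of the gene; of each partner list, the 2 or 3 genes with the smallest F-test p are named. Cldn4, Cdh2, Cntn6, Cadm3 and the other members without a call were picked after their values were seen. The number of arrays limits the precision. Alternatives covered normalization, array weights, the Gapdh difference as a covariate, a filter on dim probe sets, the variance model, the groups fitted, the replicate numbers and leaving out each array.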

Additional observations from a re-analysis of the deposited data

Results flagged for a closer look

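In 4 of 75 groups of animals tested (15 probe sets in 5 groups), 1 animal stood far from the rest of its group; chance alone flags about 1 in 20 groups. Ctnna1 was 10.8 in Spi-2 replicate 4 and 9.48 to 9.91 in the other Spi-2 rats; that array was also the one with a fibroblast and meningeal list mean of 10.30. Cldn10 was 6.31 in Spi-7 replicate 4 and 5.57 to 5.78 in the other Spi-7 rats. Nrcam on 1392734_at was 5.73 in Spi-60 replicate 1 and 6.35 to 6.87 in the other Spi-60 rats, and the Gapdh difference of that array, 3.97, was the highest of the 31. Nrxn2 on 1368875_a_at was 7.88 in Control replicate 4 and 7.62 to 7.65 in the other Control rats.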

How the results depend on the processing

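For the called changes, the 2 members called in the F-test alone and Cldn4 at days 2 and 7 (23 changes in all), no direction turned under any alternative: 780 recomputed values kept their side of the threshold, 99 lost the call and 5 gained one. Many of these settings could not turn a direction. Leaving out an array of a group outside the contrast left the change itself as it was. So did the dim filter, the variance model and fitting only the groups compared. In such settings only the p could move. The other changes in the text were not recomputed, apart from day 2 without Spi-2 replicate 4. The counts of called members moved more. Over the 5 groups, where 8 were called, array weights gave 20 and the replicate block gave 12, where the calls over all probe sets went to 4082 with the weights and 1984 with the block, against 2098. At day 2 (1 called), array weights gave 8, and the Gapdh covariate, the dim filter and fitting only the groups compared gave 3 each. All calls there were 2275, 768, 1214 and 1104, against 1146. At day 7 (0 called), array weights gave 6, fitting only the groups compared 2 and a further quantile normalization 1. All calls there were 1530, 524 and 309, against 334. At day 21 (11 called), fitting only the groups compared gave 6 and leaving out Spi-21 replicates 1 to 3 gave 4. All calls there were 1364 and 680, against 2148. At day 60 (7 called), the Gapdh covariate gave 1, array weights 15, fitting only the groups compared 12 and the replicate block 11, where all calls were 267, 3233, 2964 and 2236, against 2207. Among days 0, 2 and 7 (1 called), array weights gave 7, the Gapdh covariate 2 and the replicate block 0. All calls there were 1792, 957 and 155, against 743. Between days 60 and 21 (0 called), leaving out Spi-21 replicates 1 to 3 gave 1, where all calls were 246, against 9. The cause of these shifts was not tested. The replicate block left the day 2 count at 1, and at day 21 it gave 13. All calls with the block were 923 at day 2 and 2108 at day 21. The numbers only name the animals: of 51 pairs of arrays that share a number, 11 had residuals correlated above 0.1, with a mean correlation of -0.03, and 2 of 31 arrays correlated best with an array of their own number.

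With each array left out in turn, the count over the 5 groups ran from 4 (without Control replicate 2 or 3) to 11, at day 2 from 0 (without Control replicate 1 or 3) to 4 (without Spi-2 replicate 2), at day 7 from 0 to 2 (without Control replicate 4), at day 21 from 6 (without Control replicate 2) to 13, at day 60 from 4 (without Control replicate 3) to 9, and among days 0, 2 and 7 from 0 to 3. Without Control replicate 1 or Spi-21 replicate 3, 5 members were called over the 5 groups, and without Control replicate 3, 7 were called at day 21. The dim filter left out 21 members with a mean under 5.34, Nectin3 and Cldn1 on 1387470_at among them. For such dim members the absence of a call does not show the absence of a change. With the Gapdh covariate none of the 7 calls at day 60 held (adjusted p = 0.0559 for Ctnnbip1 to 0.667 for Nrcam).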
